A study of Mus musculus with 6 samples.

Results

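The genes described here are 10 members of the canonical WNT pathway. They were chosen by name, with earlier results of these data known, from the 24083 genes of an RNA-seq table of mouse embryonic stem cells. They fall into 4 TCF/LEF effectors, the DNA-binding factors Lef1, Tcf7, Tcf7l1 and Tcf7l2, and 6 feedback genes, Sp5, Axin2, Nkd1, Notum, Znrf3 and Rnf43. All 10 were in the table. Polyadenylated RNA came from pluripotent cells kept on gelatin in medium with fetal bovine serum and the self-renewal cytokine LIF, with no further treatment, in 3 libraries labelled wild type (WT) and 3 labelled R153A, a form of the homeodomain factor NANOG in which an arginine is named as changed to alanine. The sources used here do not give how R153A was introduced, whether WT NANOG was still made in those cells, or whether a group's libraries are separate cultures or clones, so p-values measure only the spread between these libraries.

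In canonical WNT signalling, a WNT ligand bound to a Frizzled receptor and its co-receptor LRP5 or LRP6 blocks the complex that destroys β-catenin. The β-catenin that builds up enters the nucleus and joins TCF/LEF factors at their target genes. In embryonic stem cells TCF7L1 acts mainly as a repressor, also of pluripotency genes, and TCF7 and LEF1 act mainly as activators with β-catenin. Feedback genes are targets of the pathway whose products restrain it at the ligand, at the receptor, in the cytoplasm or on the target genes themselves.

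Levels are FPKM, the fragments counted per kilobase of a gene and set against a library's mapped fragments, a scale that allows levels of different genes to be compared. Read depth was unknown, and the summed FPKM of a library ran from 360152 to 382086. Nanog itself measured 241, 259 and 258 FPKM in the WT libraries and 119, 122 and 129 FPKM in those of R153A, which does not check a change of one residue. All 9 embryonic stem cell markers reached 1 FPKM in each of the 6 libraries, and of these 6 fell, 1 rose and 2 were not called. Over all genes tested as described below, 22.3% were called lower and 37.5% higher. Dppa5a fell from 2575 ± 364 to 936 ± 20.5 FPKM, and the other 8 summed to 1775 to 1890 FPKM in WT and 1363 to 1421 FPKM in R153A. Lin28a rose from 43.4 ± 2.90 to 99.0 ± 1.25 FPKM, whereas Tdgf1 (432 ± 17.6 and 429 ± 14.4 FPKM) and Sall4 (37.97 ± 2.40 and 37.3 ± 0.972 FPKM) were not called. In such bulk samples, fewer cells of a type and less RNA per cell cannot be told apart. Differences are given as R153A minus WT of mean log2(FPKM + 1), which understates the change of low genes. Genes with at least 1 FPKM in 3 or more of the 6 libraries were tested with limma, and a gene was called at a Benjamini-Hochberg adjusted p under 0.05.

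Of the 10 genes, Sp5, Axin2 and Tcf7l1 rose and Notum fell in R153A cells. Lef1, Tcf7, Tcf7l2 and Znrf3 were tested and not called, and Nkd1 and Rnf43 lay under the expression filter. Over all 11817 genes tested, 59.8% were called, 37.5% higher and 22.3% lower, so 4 calls among 8 tested members is a share no higher than that of genes in general. The 3 values of each group did not overlap for 4 of the 8 tested members (3 above WT and 1 below), compared with 65.0% of all genes tested (39.8% above and 25.2% below). Of all calls, 62.7% were higher in R153A as deposited, 50.7% after median-ratio scaling and 47.4% after quantile normalization. The members that moved nevertheless differed widely in size: the log2 fold change of Sp5 was the 10th largest of the 11817 in size and that of Axin2 ranked 289, whereas Notum ranked 1558 and Tcf7l1 5707. Sp5 and Axin2 reached the filter only through R153A and therefore had to differ, and such sizes depend on the 1 added to FPKM.

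**Figure D1:**
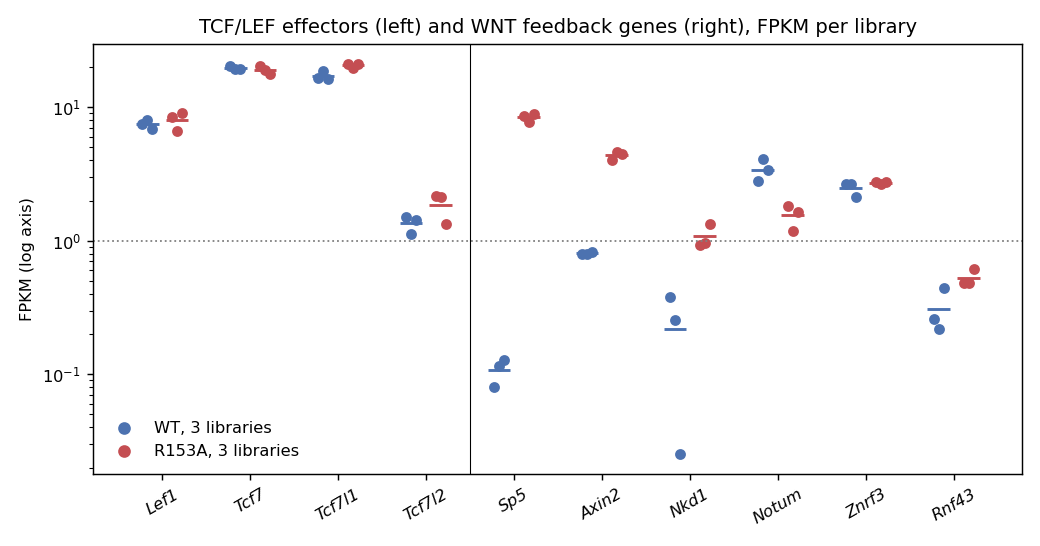
FPKM on a log axis of the 4 TCF/LEF effectors (left) and 6 feedback genes (right) in the 3 WT and 3 R153A libraries; points are libraries, bars are group means and the dotted line marks 1 FPKM. Sp5 stood between 0.0802 and 0.128 FPKM in WT and between 7.78 and 8.85 FPKM in R153A, whereas the WT and R153A values of Lef1, Tcf7, Tcf7l2 and Znrf3 overlap.

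Ranked by mean FPKM in WT cells, the order was Tcf7 (19.8), Tcf7l1 (17.2), Lef1 (7.44), Notum (3.42), Znrf3 (2.49), Tcf7l2 (1.35), Axin2 (0.804), Rnf43 (0.307), Nkd1 (0.220) and Sp5 (0.108). Neighbours in that order did not overlap between libraries, except Rnf43 with Nkd1 and Nkd1 with Sp5. In R153A cells the order was Tcf7l1 (20.7), Tcf7 (19.04), Sp5 (8.42), Lef1 (8.07), Axin2 (4.37), Znrf3 (2.72), Tcf7l2 (1.86), Notum (1.55), Nkd1 (1.08) and Rnf43 (0.525). There Tcf7l1 overlapped with Tcf7, Sp5 with Lef1, Tcf7l2 with Notum and Notum with Nkd1. Sp5 thus stood last of the 10 genes in WT and level with Lef1 in R153A.

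Among the effectors, Tcf7l1, the factor known mainly as a repressor, measured 16.6, 18.8 and 16.3 FPKM in the WT libraries and 20.98, 19.9 and 21.3 FPKM in those of R153A. The 3 R153A values lay above the 3 WT values, although the highest WT library came within 1.06-fold of the lowest R153A library. Tcf7l1 rose by 0.25 on the log2 scale (SE 0.0635, limma adjusted p = 0.00527), a 1.20-fold higher mean. The median of all tested genes stood at 0.071 on the same scale, and 48.3% of them had a difference at least as large as that of Tcf7l1. The older name of TCF7L1 in stem cell work is TCF3. The separate row named Tcf3 in the table, the symbol of the E2A gene, had 43.8 ± 3.98 FPKM in WT and 42.2 ± 1.97 FPKM in R153A (mean ± SD, n = 3).

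Tcf7, which encodes TCF1, a factor that can activate targets together with β-catenin, measured 20.5, 19.5 and 19.4 FPKM in the WT libraries and 20.2, 19.04 and 17.9 FPKM in those of R153A. The groups overlapped, and the difference of -0.054 had a 95% interval of -0.18 to 0.076 on the log2 scale (limma adjusted p = 0.45). Lef1, a TCF/LEF activator that is itself a WNT target in many tissues, measured 7.45, 8.04 and 6.82 FPKM in the WT libraries and 8.45, 6.63 and 9.14 FPKM in those of R153A. R153A replicate 2 fell below the lowest WT library while the other two lay above the highest. The difference of Lef1 was 0.097 (95% interval -0.13 to 0.32, limma adjusted p = 0.436). Without R153A replicate 2 it was 0.22 and called (limma adjusted p = 0.0495), and under quantile normalization it was -0.013.

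Tcf7l2, which encodes TCF4, the main β-catenin partner in intestinal epithelium, was the lowest of the 4 effectors. It measured 1.51, 1.12 and 1.42 FPKM in the WT libraries and 2.15, 2.11 and 1.33 FPKM in those of R153A. R153A replicates 1 and 2 lay above all WT libraries and replicate 3 lay within the WT range. The difference was 0.27 (95% interval 0.0047 to 0.54, unadjusted p = 0.0468, limma adjusted p = 0.0739). Without R153A replicate 3 it was 0.42 and called (limma adjusted p = 0.0057), and under quantile normalization it was 0.044 (limma adjusted p = 0.791). None of the 3 effectors without a call is thereby shown to be equal in the groups.

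The makeup of the effector pool moved by a few percentage points. The summed FPKM of the 4 effectors was 46.1, 47.4 and 43.9 in WT and 51.8, 47.7 and 49.6 in R153A. Tcf7 made up 43.2 ± 1.85% of the sum in WT and 38.3 ± 2.07% in R153A, and Tcf7l1 37.6 ± 1.81% and 41.7 ± 1.20% (n = 3 each). Tcf7l1 divided by Tcf7 within a library, a ratio that no scaling factor of a library can alter, was 0.811, 0.963 and 0.842 in WT and 1.04, 1.04 and 1.19 in R153A. Tcf7 thus exceeded Tcf7l1 in all 3 WT libraries and Tcf7l1 exceeded Tcf7 in all 3 R153A libraries. A two-sided exact permutation test of this ratio gave p = 0.1, which is the smallest value that 3 libraries against 3 can reach.

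**Figure D2:**
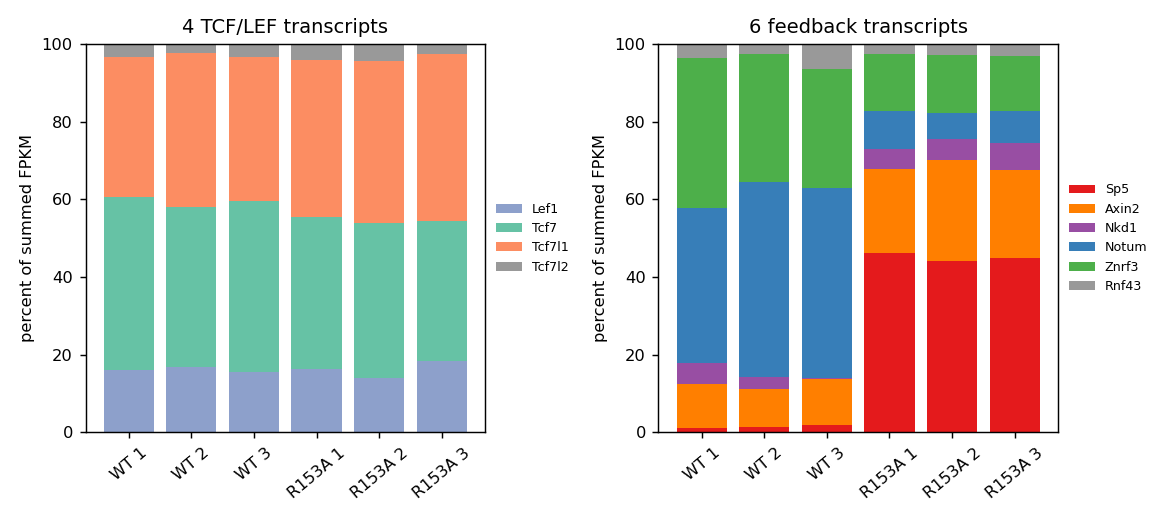
Share of the summed FPKM, in percent, taken by each of the 4 TCF/LEF transcripts (left) and each of the 6 feedback transcripts (right) in every library. The effector shares moved little, while Sp5 went from 1.47% to 45.1% and Notum from 46.3% to 8.28% of the feedback sum on average.

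Among the feedback genes the differences ran in both directions. Sp5 encodes a zinc-finger factor of the SP/KLF family that WNT signalling induces and that can in turn repress WNT targets. It measured 0.0802, 0.115 and 0.128 FPKM in the WT libraries and 8.64, 7.78 and 8.85 FPKM in those of R153A. The lowest R153A library was 60.7 times the highest WT library, a ratio that rests on WT values near 0.1 FPKM at an unknown depth. Sp5 rose with a limma adjusted p = 3.2e-10 and a log2 fold change of 3.09 (SE 0.0781). No WT library reached 1 FPKM, so Sp5 was tested only because of its R153A level.

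The sequence before the Sp5 start site is shown because Sp5 made the largest change of the 10 genes and TCF/LEF factors bind the core CTTTG. Promoter windows came from RefSeq (GRCm38.p6), which held 1 or more windows for 8 of the 10 genes, and the 250 bases before each start were searched on both strands for that core followed by 2 bases that are each A or T, a 7-letter motif. Capitals mark matches. The Sp5 window is chr2:70474673-70474922 on the plus strand, and the Axin2 window, chr11:108920099-108920348 on the plus strand, is set beside it as that of the other feedback gene that rose.
Sp5: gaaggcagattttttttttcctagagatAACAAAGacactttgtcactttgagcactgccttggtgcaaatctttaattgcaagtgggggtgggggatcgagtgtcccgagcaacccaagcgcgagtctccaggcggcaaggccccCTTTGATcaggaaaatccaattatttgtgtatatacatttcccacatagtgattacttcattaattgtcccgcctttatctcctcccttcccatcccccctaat
Axin2: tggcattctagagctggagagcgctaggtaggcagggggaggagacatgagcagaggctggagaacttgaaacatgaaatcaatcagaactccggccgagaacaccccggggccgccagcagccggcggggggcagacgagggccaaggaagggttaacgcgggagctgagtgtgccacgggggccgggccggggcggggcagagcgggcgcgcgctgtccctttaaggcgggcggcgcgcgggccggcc
The Sp5 window held 2 matches, the first beginning 222 bases (on the minus strand) and the second 104 bases (on the plus strand) before the start. Of 32851 windows of this length in the RefSeq table, 14.8% held at least 1 match and 1.43% at least 2, and of the 11176 windows of tested genes 9.87% and 0.698% did. The bare core, on either strand, occurred 4 times in the Sp5 window, and 0.773% of all windows and 0.367% of those of tested genes held as many or more. That cutoff was the Sp5 count itself, and Sp5 was picked for its change, so these shares are a description only. The Axin2 window held neither a match nor the core, which says only that these letters are not in these 250 bases. Of the other members, 1 of 4 Lef1 windows and 1 of 2 Tcf7l2 windows held 1 match each. Those of Tcf7, Tcf7l1, Nkd1 and Rnf43 held none. The bare core occurred 1 to 3 times in each Lef1 window and 1 time in each Tcf7l1 and Tcf7l2 window.

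Axin2, a scaffold of the β-catenin destruction complex whose transcript is widely used as a readout of WNT activity, measured 0.794, 0.801 and 0.819 FPKM in the WT libraries and 4.06, 4.60 and 4.46 FPKM in those of R153A. The groups lay far apart, with the lowest R153A library 4.95 times the highest WT library. Axin2 rose 5.44-fold in mean FPKM (limma adjusted p = 2.3e-08), with a log2 fold change of 1.57 and an SE of 0.0762. Like Sp5 it reached 1 FPKM in no WT library. Within libraries, Sp5 divided by Axin2 was 0.101, 0.144 and 0.156 in WT and 2.13, 1.69 and 1.98 in R153A. The Sp5 level was thus well under that of Axin2 in each WT library and above it in each R153A library.

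Notum, a secreted enzyme that inactivates WNT ligands by removing their lipid, moved the opposite way. It measured 2.79, 4.07 and 3.39 FPKM in the WT libraries and 1.83, 1.18 and 1.65 FPKM in those of R153A, with all R153A libraries below all WT libraries. It fell 2.20-fold in mean FPKM (limma adjusted p = 2.2e-04), with a log2 fold change of -0.79 and an SE of 0.123. Axin2 divided by Notum within a library was 0.285, 0.197 and 0.242 in WT and 2.22, 3.91 and 2.70 in R153A.

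Nkd1, which binds dishevelled and dampens the signal in the cytoplasm, measured 0.378, 0.256 and 0.0251 FPKM in the WT libraries and 0.934, 0.960 and 1.35 FPKM in those of R153A. All R153A values lay above all WT values, but only 1 library reached 1 FPKM and the gene was not tested under the filter. In a fit with no filter on low values, where 40.3% of 20504 genes were called and 26.9% were higher, its log2 fold change was 0.78 (limma adjusted p = 0.00446).

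Znrf3 and Rnf43 encode related membrane ubiquitin ligases that remove Frizzled receptors from the cell surface. Znrf3 measured 2.69, 2.68 and 2.11 FPKM in the WT libraries and 2.75, 2.65 and 2.77 FPKM in those of R153A. WT replicate 3 stood apart below the other 5 libraries. The difference of Znrf3 was 0.096 (95% interval -0.093 to 0.29, limma adjusted p = 0.355), and -0.11 under quantile normalization. Rnf43 lay under 1 FPKM in every library, at 0.258, 0.220 and 0.444 FPKM in WT and 0.483, 0.483 and 0.609 FPKM in R153A. Its values did not overlap, by a narrow margin, and with no filter on low values its difference of 0.23 was not called (limma adjusted p = 0.0539). The 2 ligases thus stood at different levels in these cells, with Znrf3 above Rnf43 in all 6 libraries.

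The summed FPKM of the 6 feedback genes was 6.98, 8.15 and 6.92 in WT and 18.7, 17.7 and 19.7 in R153A. Sp5 took 1.47 ± 0.355% of this sum in WT and 45.1 ± 1.08% in R153A, Axin2 11.01 ± 1.05% and 23.5 ± 2.29%, and Notum 46.3 ± 5.53% and 8.28 ± 1.55% (n = 3 each). In WT the feedback transcripts were mostly Notum and Znrf3, and in R153A mostly Sp5 and Axin2. For Sp5, Axin2, Notum, Nkd1, Rnf43 and Tcf7l1 taken singly, a two-sided exact permutation test likewise gave p = 0.1.

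**Figure D3:**
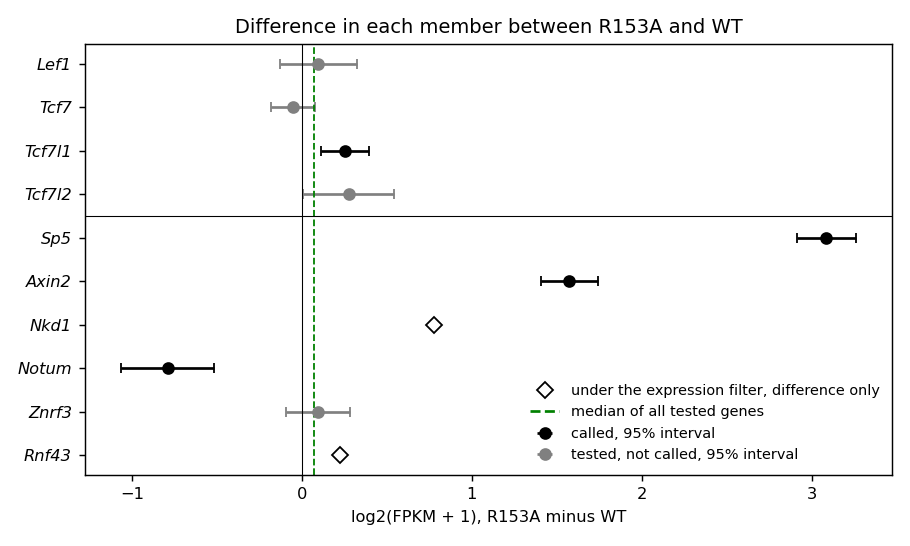
Difference of mean log2(FPKM + 1), R153A minus WT, of each gene with its 95% interval from limma (black called, grey not called); open diamonds are the 2 genes under the expression filter, given without an interval, and the dashed line is the median of all tested genes, 0.071. The effectors lie between -0.054 and 0.27, and the tested feedback genes between -0.79 and 3.09.

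For the tested members, the genes with the closest profile over the 6 libraries were found by the Euclidean distance between log2(FPKM + 1) values centred on each gene's mean. The closest to Sp5 were Ltb (distance 0.200) and Sema6a (0.224), those to Axin2 were Trp53inp1 (0.0859) and Pdpn (0.119), and those to Notum were Slc25a12 (0.153) and Crisp1 (0.176). The closest to Tcf7l1 were Fam133b (0.0293) and Tbc1d9b (0.0321). Lef1 was closest to Ddx55 and Rab4a, Tcf7 to Coprs and Kdelr2, Tcf7l2 to Dusp28 and Dnajc12, and Znrf3 to Brd9 and Arhgap5. With 2 groups this distance mostly reflects the size of the difference between them.

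The other genes of the pathway were taken from 8 lists with 111 genes, of which 78 were tested. Of these, 45 rose, 14 fell and 19 were not called (75.6% called), beside 59.8% called over all genes tested (37.5% higher and 22.3% lower). Of the 78, 14 reached the filter only through R153A and therefore had to differ. The lists were also chosen with earlier results of these data known. The counts and medians of tested genes, in total and per list, are therefore a description only. Over all 111 genes, tested or not, the median difference of mean log2(FPKM + 1) was 0.19. The whole table had a median of 0.0034, but 5562 to 6521 of its genes were listed at 0 in a library. It is therefore not a like comparison for the 111 genes. Among tested genes only, the median was 0.31 in the lists and 0.071 over all.

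At the receptors, 11 of 15 tested genes rose, 1 fell and 3 were not called, with a median of 0.51 (0.54 over all 18 genes of the list). Of the 11, 3 reached the filter only through R153A and therefore had to differ, Fzd10 among them. The Frizzled gene Fzd2 rose from 1.28 ± 0.277 to 13.1 ± 0.421 FPKM and Fzd10 from 0.869 ± 0.0870 to 6.49 ± 0.751 FPKM. The co-receptor gene Lrp5 rose from 9.10 ± 0.221 to 22.7 ± 0.236 FPKM, while Lrp6, with 7.97 ± 1.05 FPKM in WT and 7.62 ± 0.419 FPKM in R153A, was not called. Fzd5 was the member that fell, from 10.2 ± 0.402 to 4.18 ± 0.166 FPKM. Of 7 genes for R-spondins, which raise Frizzled levels by removing ZNRF3 and RNF43, and for their LGR receptors, 2 were tested and both rose. Lgr4 rose from 11.2 ± 0.988 to 22.8 ± 0.585 FPKM and Rspo1, which reached the filter only through R153A, from 0.668 ± 0.150 to 3.11 ± 0.114 FPKM. Lgr5 lay at 0.0036 ± 0.0063 FPKM in WT and 0.0979 ± 0.0596 in R153A.

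In the destruction complex, 6 of 14 tested genes rose, 1 fell and 7 were not called, with a median of 0.093. The tankyrase gene Tnks2, whose product marks AXIN for degradation, rose from 53.1 ± 2.03 to 68.0 ± 1.61 FPKM and the kinase gene Gsk3b from 5.71 ± 0.348 to 7.34 ± 0.370 FPKM. The casein kinase gene Csnk1d rose from 31.2 ± 1.24 to 37.5 ± 0.190 FPKM and Fbxw11, which encodes a β-TrCP relative, from 15.7 ± 0.246 to 18.8 ± 0.551 FPKM. Btrc, which encodes β-TrCP, had means of 6.35 ± 0.211 FPKM in WT and 5.501 ± 0.151 FPKM in R153A. Its call as lower (limma adjusted p = 0.0345) ended without WT replicate 2 (0.0648), WT replicate 3 (0.0728), R153A replicate 1 (0.0644), R153A replicate 2 (0.0966) or R153A replicate 3 (0.0922), and with the replicate block (0.0771). Axin1, the constitutive counterpart of Axin2, had means of 20.3 ± 1.30 FPKM in WT and 19.03 ± 0.393 FPKM in R153A and was not called.

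Of 16 tested coregulators of β-catenin and TCF, 8 rose, 4 fell and 4 were not called, with a median of 0.21. Ctnnb1, which encodes β-catenin itself, rose from 166 ± 8.78 to 213 ± 4.28 FPKM (log2 fold change 0.35, limma adjusted p = 1.0e-04). Bcl9 and Bcl9l, adaptors that link β-catenin to its coactivators, rose to 6.74 ± 0.129 FPKM from 3.82 ± 0.292 and to 5.72 ± 0.378 FPKM from 2.75 ± 0.0800. The largest change in the list was a fall. Aes, a short Groucho family member, fell from 110.3 ± 4.02 to 28.4 ± 0.982 FPKM (log2 fold change -1.92, limma adjusted p = 3.3e-10). Hipk2, a kinase that modifies TCF factors, fell from 8.03 ± 1.24 to 3.81 ± 0.391 FPKM. Tbl1xr1 fell from 5.52 ± 0.190 to 3.48 ± 0.0721 FPKM. Tle3, a full-length Groucho corepressor, fell from 33.8 ± 0.317 to 30.3 ± 1.38 FPKM, a call that ended without R153A replicate 2 (limma adjusted p = 0.0953). The genes that rose were not only those of coactivators. Tle4, a relative of Tle3, rose from 12.2 ± 1.11 to 15.7 ± 0.604 FPKM and the corepressor gene Ctbp1 from 26.1 ± 0.874 to 35.1 ± 0.585 FPKM. Ctnnbip1, which encodes an inhibitor of β-catenin, rose from 7.14 ± 0.670 to 9.84 ± 0.345 FPKM.

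Of 23 antagonist genes, 10 were tested, of which 6 rose, 3 fell and 1 was not called, with a median of 0.70 (0.14 over all 23). Of these, 3 reached the filter only through R153A and therefore had to differ, Tpbg and Kremen2 among them. Dact3, a dishevelled-binding antagonist, rose from 3.49 ± 0.457 to 11.2 ± 0.560 FPKM and Sfrp2, a secreted WNT-binding protein, from 1.83 ± 0.136 to 6.43 ± 0.493 FPKM. Tpbg, a membrane inhibitor of the receptors, rose from 0.679 ± 0.150 to 4.13 ± 0.280 FPKM and Kremen2, a receptor of DKK proteins, from 0.521 ± 0.148 to 2.65 ± 0.503 FPKM. As with Notum, some antagonists fell: Sfrp1 from 12.5 ± 0.551 to 6.96 ± 0.183 FPKM, Apcdd1 from 2.21 ± 0.192 to 1.26 ± 0.148 FPKM and Dact1 from 3.48 ± 0.0716 to 2.26 ± 0.0244 FPKM. Of 6 genes of WNT secretion, Wls, the carrier of WNT proteins, rose from 1.14 ± 0.108 to 6.56 ± 0.442 FPKM, whereas Porcn, the enzyme that attaches the lipid that NOTUM removes, fell from 42.7 ± 0.962 to 23.8 ± 1.26 FPKM. The glypican gene Gpc4 fell from 12.5 ± 0.508 to 10.6 ± 0.274 FPKM, and Gpc3 fell from 50.8 ± 0.598 to 46.0 ± 1.94 FPKM. The Gpc3 call ended without WT replicate 1 (limma adjusted p = 0.062), R153A replicate 1 (0.112) or R153A replicate 3 (0.102), and in limma without a trend (0.0594).

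**Figure D4:**
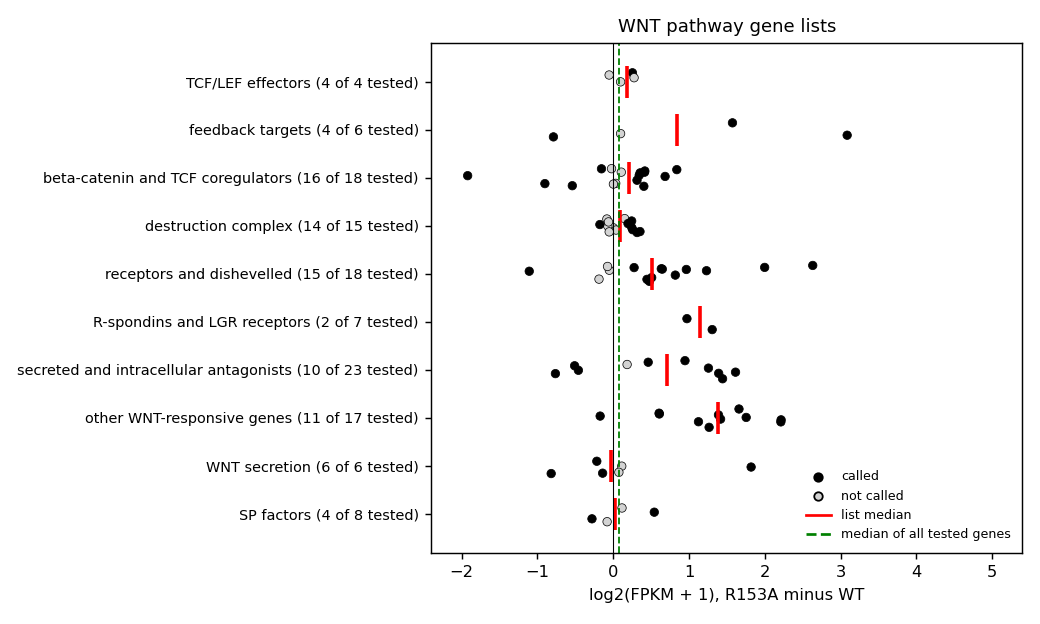
Log2 fold changes, R153A minus WT of log2(FPKM + 1), of the tested genes in the 2 member classes and 8 other WNT pathway lists; black points were called, grey ones were not, red bars are list medians and the dashed line is the median of all tested genes. Most lists hold genes on both sides of 0; of the 11 points in the list of other WNT-responsive genes, 7 are genes that reached the filter only through R153A, so that median is not comparable with the others.

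Other genes known to respond to WNT, many of them markers of the primitive streak, were set beside Sp5 and Axin2. Of 17, 11 were tested, of which 10 rose and 1 fell, and 7 of the 11 reached the filter only through R153A. The median was 1.39 over the 11 and 0.61 over all 17. T, which encodes brachyury, measured 0.0726, 0.101 and 0.176 FPKM in the WT libraries and 4.52, 3.78 and 4.27 FPKM in those of R153A. Wnt3, a ligand of the streak, rose from 0.133 ± 0.0367 to 4.25 ± 0.342 FPKM, Cdx2, a caudal homeobox gene, from 0.117 ± 0.0364 to 2.78 ± 0.392 FPKM and Tnfrsf19 from 0.474 ± 0.108 to 3.67 ± 0.566 FPKM. All 4 lay under 1 FPKM in every WT library, as did Sp5 and Axin2, and therefore had to differ. The genes that rose and reached 1 FPKM in every library were Ddit4, Jun and Myc. Ddit4 rose from 260 ± 12.7 to 568 ± 12.4 FPKM, Jun from 4.53 ± 0.484 to 12.3 ± 0.571 FPKM and Myc from 2.97 ± 0.311 to 5.06 ± 0.706 FPKM. Ccnd1, the cyclin D1 gene, had means of 22.3 ± 1.47 FPKM in WT and 19.7 ± 1.22 FPKM in R153A. Its call as lower (limma adjusted p = 0.0393) ended without WT replicate 1 (0.0873), WT replicate 2 (0.12), R153A replicate 1 (0.0591) or R153A replicate 2 (0.154), with the replicate block (0.0574), in limma without a trend (0.0617) and when low values were not filtered (0.0792).

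Of 8 other SP factors, the family of SP5, 4 were tested. Sp6 rose from 1.901 ± 0.328 to 3.21 ± 0.364 FPKM and Sp2 fell from 11.5 ± 0.303 to 9.29 ± 0.358 FPKM, while Sp1 and Sp3 were not called. Sp8, known to act with SP5 downstream of WNT, lay at 0.0694 ± 0.0216 FPKM in WT and 0.215 ± 0.0277 in R153A.

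Markers of other cell types differed between the groups in both directions. Of 10 primitive streak and mesoderm markers, 3 were tested: T and Foxa2 rose and Eomes fell. The summed level of the 10 was 4.53 to 5.45 FPKM in WT and 11.03 to 11.8 FPKM in R153A, and without T it was 4.35 to 5.34 and 7.17 to 7.53 FPKM. Foxa2 rose from 0.176 ± 0.0811 to 3.40 ± 0.341 FPKM and is part of the sum without T. No sum without both genes was taken, so a rise across the list is not shown. Among the markers not tested, Mixl1 and Lhx1 lay higher and Gsc lower in R153A without overlap, and the others overlapped. Eomes fell from 3.38 ± 0.581 to 2.42 ± 0.353 FPKM, a call that ended without WT replicate 2 (limma adjusted p = 0.0737) or R153A replicate 2 (0.0627) and when low values were not filtered (0.0714). The nascent mesoderm gene Mesp1 was listed at 0 in 5 of 6 libraries, and Kdr stood at 0.0347 FPKM on average in both groups. In 3 of the other marker lists, the sum took its direction from 1 gene. Of 8 tested trophectoderm markers, 4 rose and 2 fell. The keratin gene Krt8 rose from 22.7 ± 3.55 to 214 ± 8.89 FPKM, while the other 9 markers summed to 69.7 to 77.2 FPKM in WT and 49.1 to 50.9 FPKM in R153A, with Tfap2c falling from 55.4 ± 3.24 to 19.8 ± 1.10 FPKM. Of 5 tested neuroectoderm markers, 2 rose and 3 fell. The tubulin gene Tubb3 fell from 48.3 ± 4.07 to 15.3 ± 0.112 FPKM, while the other 9 summed to 18.2 to 20.3 FPKM in WT and 38.9 to 41.7 FPKM in R153A, with Nes rising from 3.99 ± 0.444 to 23.3 ± 1.21 FPKM. Of 5 tested primitive endoderm markers, 1 rose and 2 fell. The collagen gene Col4a1 rose from 2.63 ± 0.277 to 7.32 ± 0.487 FPKM, while the other 9 summed to 8.10 to 9.55 FPKM in WT and 6.01 to 6.14 FPKM in R153A, with Sox7 and Lama1 falling. Fibroblast markers summed to 8.60 to 9.40 FPKM in WT and 11.8 to 12.7 FPKM in R153A, with 3 of 5 tested higher, and were higher in R153A also without Col1a1 (7.27 to 8.08 and 8.91 to 9.88 FPKM). Some of these markers reached the filter through 1 group only and therefore had to differ. Through R153A alone these were 2 streak, 2 fibroblast and 1 trophectoderm markers. Through WT alone they were 2 primitive endoderm markers and 1 neuroectoderm marker. Over all genes tested 59.8% were called, so the counts of called markers are a description only. The part of other cell types in the levels of the 10 WNT genes was not tested.

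**Figure D5:**
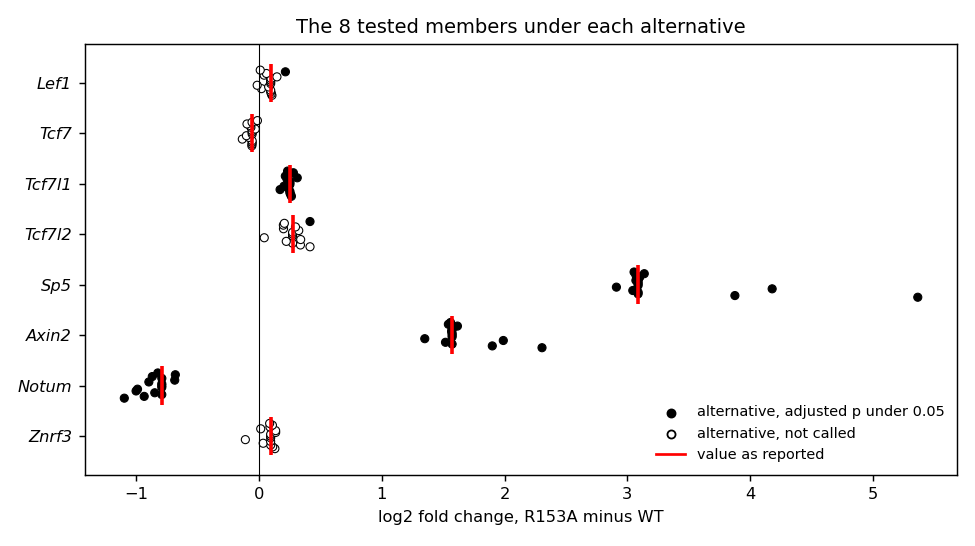
Log2 fold change, R153A minus WT, of the 8 tested genes as reported (red bars) and under each alternative way of processing (points; black where called, open where not). Sp5, Axin2, Tcf7l1 and Notum kept their direction and call in all alternatives that tested them, and the values of Lef1 and Znrf3 lie on both sides of 0.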

How the data were processed

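RNA-seq of 3 WT and 3 R153A libraries of mouse embryonic stem cells was analysed from 1 table of FPKM values that the authors deposited, with 1 value per gene and library. The build mm9 is named in the submitters' processing notes beside edgeR 3.26.8, HTSeq 0.11.2, SAMtools 1.9 and Bowtie2 2.3.4.3, in no stated role. Which tool made the FPKM, the annotation and the use of strand were not given in the sources used here. Depth was unknown, so no count test, counting interval or floor was computed.

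Values were used as log2(FPKM + 1) without further scaling and fitted across all genes that passed the filter with limma 3.58.1 in R 4.3.3 (mean-variance trend, two-sided, Benjamini-Hochberg over all genes tested), after the fit was tested on simulated data. Intervals are limma's unadjusted 95% intervals. Plots used Python 3.11.15 and matplotlib 3.10.9.

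The 10 genes and all lists were chosen with earlier results of these data known. Named were the 10 genes, Nanog, up to 4 called genes per pathway list by size of change (the 2 highest if none), and 2 closest profiles per tested member. Other list members were named after their values were seen. Sums of marker lists were also taken without the gene that differed most in mean FPKM, a step added after seeing the data. Alternatives were pseudocounts of 0.1 and 0.5, no filter, a filter of 5 FPKM, median-ratio scaling, TPM, quantile normalization, limma without trend, robust moderation, a replicate block and leaving out each library. Promoters came from RefSeq GRCm38.p6, another build than mm9, and were used for sequence only.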

Additional observations from a re-analysis of the deposited data

How the results depend on the processing

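Sp5, Axin2, Tcf7l1 and Notum kept their direction and stayed called in every alternative that tested them, with log2 fold changes of 2.91 to 5.36, 1.35 to 2.305, 0.17 to 0.31 and -1.09 to -0.68. Tcf7l1 was 0.17 after median-ratio scaling (limma adjusted p = 0.0152). Under the filter of 5 FPKM, which tested fewer genes and 4 of the 10 members, 2901 genes were higher in place of 4428, 1 feedback gene was higher and 0 feedback genes and 0 members were lower, since Notum and Axin2 were not tested there. Lef1 was -0.013 and Znrf3 -0.11 under quantile normalization, the cause of which was not tested. Leaving out 1 library left 1 to 2 effectors higher, the second being Lef1 or Tcf7l2. The replicate numbers did not pair the libraries: deviations of same-numbered libraries correlated at -0.049, -0.0095 and 0.060, and not every library correlated best with its own number. With the replicate number as a block, 4316 genes were higher and 2560 lower, and the same 4 members were called. The unknown depth limits Sp5 and Nkd1 in WT and Rnf43, all under 1 FPKM.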
